A study of Mus musculus with 10 samples.

Results

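Ly6a, Ly6c1, Ly6c2, Ly6d and Ly6e are 5 mouse genes for small surface proteins of the Ly6 family, and they are 5 of the 53656 genes in the deposited count tables. They were picked by name from the gene column, with the difference between TOX knockout and TOX wild-type cells already known, so their values in that contrast are given as a description. RNA was sequenced from 10 libraries of CD4 T cells that had been transferred into mice: 6 of the TOX KO and 4 of the TOX WT genotype. All carried SMARTA, a transgenic T cell receptor specific for a lymphocytic choriomeningitis virus peptide (GP61). Naive cells had been put into cytoxan-treated B6 mice bearing B16-GP61 melanoma, a B16 line that carries the peptide, and were sorted from the draining lymph node of the tumour on day 11. KO cells were sorted as Ly5.1+ Ly5.2- and low for PD1, LAG3 and CD39, and WT cells as Ly5.1+ Ly5.2+ and high for these 3 proteins. Genotype, sort gate and congenic marker cannot, for this reason, be told apart. Replicates are numbered in the labels without naming animals, so each test here measures only how much libraries of a group vary, and part of that may be technical. In bulk RNA of this kind, fewer cells of a type and less RNA per cell cannot be told apart either.

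Ly6 proteins are short, folded into a finger-like domain held by disulfide bonds, and most are tethered to the outer membrane by a glycosylphosphatidylinositol (GPI) anchor. Ly6C, the product of the near-identical genes Ly6c1 and Ly6c2, is an antibody marker of inflammatory monocytes and of effector and memory T cells. Sca-1, the product of Ly6a, marks blood stem cells and activated T cells, and Ly6a and Ly6e are known targets of interferon. Ly6d marks lymphoid progenitors that are committed to the B cell lineage and is found on B cells.

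The 5 genes lie on chromosome 15 of GRCm38, in the order Ly6d (74762056 to 74763620, minus strand), Ly6e (74955051 to 74959905, plus strand), Ly6a (74994877 to 74998031, minus strand), Ly6c1 (75044018 to 75048830, minus strand) and Ly6c2 (75108158 to 75111970, minus strand). None of them shares exon sequence with an overlapping gene in the annotation used for counting. Ly6c1 and Ly6c2 are close copies. Their coding sequences of 396 bases each (GENCODE M21 transcripts Ly6c1-201 and Ly6c2-201) were identical at 387 positions, or 97.7%. The first 120 coding bases hold 6 of the 9 differences and are shown because reads can be assigned to either gene only through such positions. Capitals mark bases that differ between the pair.
Ly6c2 coding positions 1 to 120: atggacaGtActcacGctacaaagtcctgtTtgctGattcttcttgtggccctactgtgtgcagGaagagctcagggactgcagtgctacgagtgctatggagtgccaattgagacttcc
Ly6c1 coding positions 1 to 120: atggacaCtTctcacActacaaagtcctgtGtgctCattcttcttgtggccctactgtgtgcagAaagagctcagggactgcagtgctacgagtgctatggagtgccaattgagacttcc
Their longest stretch of identical coding sequence was 188 bases, longer than the 50 bp reads. Over the full transcripts, 36.7% of all 50-base windows of Ly6c1 and 33.0% of those of Ly6c2 also occurred in transcripts of another gene. The share was 8.05% for Ly6a and 0 for Ly6d and Ly6e. The deposited counts are of read pairs, so these shares of single windows do not measure how many pairs were lost. Because reads that match several places were not counted, Ly6c1 and Ly6c2 can be undercounted and their levels are uncertain. Ly6a was less like them, with 82.0% coding identity to Ly6c1 and 81.7% to Ly6c2. The remaining pairs shared 49.4% to 52.6%.

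Upstream sequence was more divergent than coding sequence. The 250 bases before the start sites of Ly6c2 and Ly6c1 come from RefSeq (GRCm38.p6), whose promoter table held 2 of the 5 genes. They are shown because Ly6c2 and Ly6c1 are read from neighbouring, related starts and differed in level. Capitals mark bases that differ or are unmatched within the aligned stretch. The last 25 bases of Ly6c2 and the first 31 of Ly6c1 lay outside that stretch. They are in lower case without being matched, so the windows do not end at matching bases.
Ly6c2, chr15:75111972-75112221, minus strand: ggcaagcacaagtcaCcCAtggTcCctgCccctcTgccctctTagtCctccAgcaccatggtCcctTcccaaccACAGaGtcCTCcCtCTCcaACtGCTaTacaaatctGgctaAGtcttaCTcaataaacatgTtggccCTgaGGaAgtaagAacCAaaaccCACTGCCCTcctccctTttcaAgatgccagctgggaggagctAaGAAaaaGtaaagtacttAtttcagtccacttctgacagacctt
Ly6c1, chr15:75048838-75049087, minus strand: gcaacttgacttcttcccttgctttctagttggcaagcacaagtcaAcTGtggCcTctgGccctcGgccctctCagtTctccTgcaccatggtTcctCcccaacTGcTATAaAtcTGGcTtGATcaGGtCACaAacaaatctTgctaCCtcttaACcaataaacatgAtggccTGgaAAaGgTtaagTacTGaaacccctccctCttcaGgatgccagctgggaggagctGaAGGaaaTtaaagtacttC
The alignment covered 228 columns, of which 164 (71.9%) were identical, with a longest identical run of 20 bases. Both windows were searched on both strands for 5 short motifs, each counted on its own whether or not it overlapped another. The core bound by RUNX factors, TGTGGT, occurred 1 time in the Ly6c2 window and 0 times in the Ly6c1 window, and 14.1% of all 32851 promoter windows held it. The core bound by ETS factors, GGAAGT, also occurred 1 time in Ly6c2 and 0 times in Ly6c1, and 19.7% of windows held it. The letters TATAAA, as in a TATA box, occurred 1 time in Ly6c1 and 0 times in Ly6c2, and 12.4% of windows held them. That Ly6c1 match lay nearer the middle of the window than the start site, and the search took no account of position. The site of the interferon gamma response, TTCNNNGAA, was in neither window, and 7.02% of windows held it. The core of the interferon-stimulated response element, GAAANNGAA, was also in neither, and 7.13% of windows held it. These are matches of letters and not sites shown to be bound.

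Tox, the targeted gene, held 15.3, 15.5, 19.1, 68.0, 42.8 and 25.2 CPM (gene counts scaled to library size) in KO replicates 1 to 6, against 170, 357, 172 and 245 CPM in WT replicates 1 to 4. Every KO library was below every WT library (log2 fold change -2.93, SE 0.48, edgeR quasi-likelihood test, adjusted p = 0.010), and Tox reads were still present in KO. Depth was 36028980 to 55784453 counts per KO library and 31939816 to 45481478 per WT library. The 5 Ly6 genes together took 0.484% to 0.858% of the counts in KO and 0.620% to 1.00% in WT. The labelled cell type was present in all libraries: 8 T cell markers (Trac and Lck the most abundant) summed to 19535 to 25131 CPM in KO, against 8741 to 17494 CPM in WT. Immunoglobulin genes took 0.0835% to 0.188% of counts in KO and 0.824% to 17.1% in WT.

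Among the 5 Ly6 genes, Ly6c2 and Ly6d were called lower in KO, and none was called higher. A call is a Benjamini-Hochberg adjusted p under 0.05 over all genes in edgeR's test. Of all 14214 genes tested, 3.13% were called, 2.7% as lower and 0.429% as higher. Every KO library was below every WT library for Ly6c1, Ly6c2 and Ly6d, an arrangement seen in 6.31% of all genes tested. None stood above in every KO library, as 2.59% of all genes did, and the groups overlapped for Ly6a and Ly6e. Nothing is read from these shares, since the genes were chosen on this contrast. All 5 passed the filter on low counts.

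**Figure D1:**
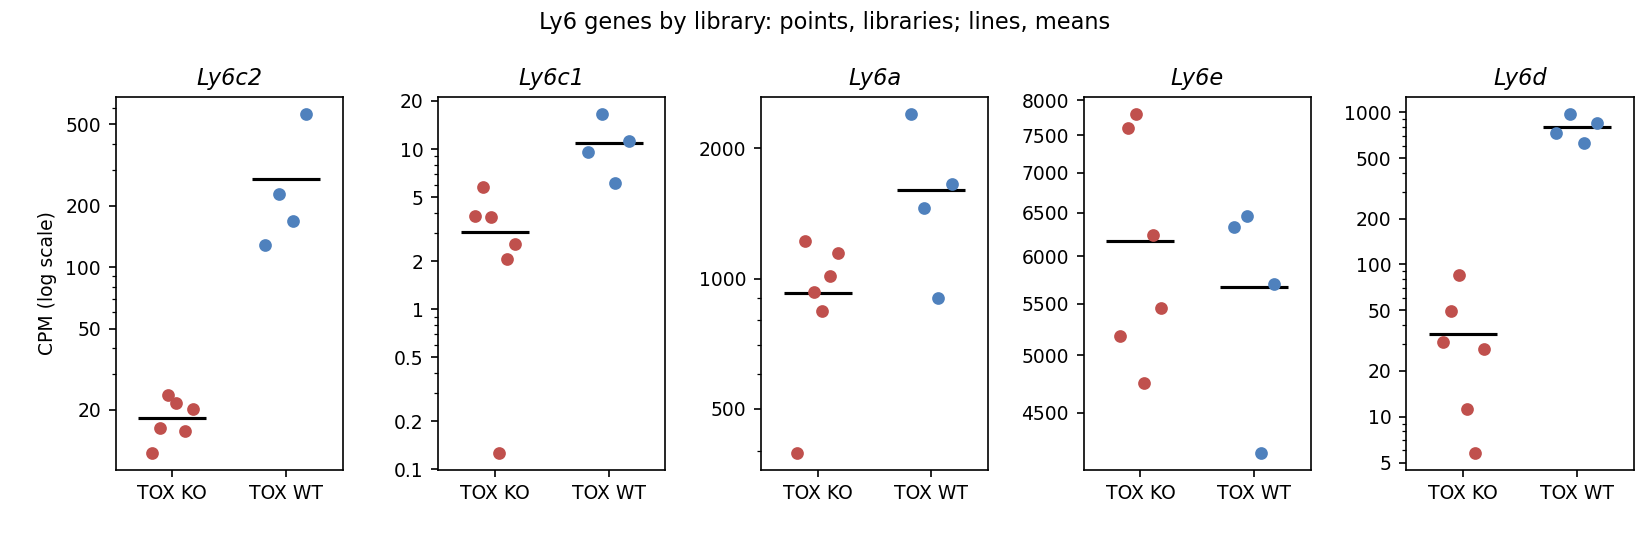
Level of each Ly6 gene in each library, in CPM on log axes whose ranges differ between panels. Points are the 6 TOX KO and 4 TOX WT libraries and lines are group means. Ly6c2, Ly6c1 and Ly6d had no KO point as high as a WT point, while Ly6a and Ly6e overlapped.

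Ly6c2, the more abundant of the Ly6C genes, held 12.3, 16.4, 23.6, 21.6, 15.9 and 20.3 CPM in KO replicates 1 to 6, against 128, 228, 168 and 560 CPM in WT replicates 1 to 4. The KO libraries lay close together, the highest at 1.91 times the lowest, and WT replicate 4 stood above the other WT libraries. The log2 fold change was -3.88 (SE 0.43), and over the 10 fits that each leave out 1 library it ran from -4.11 to -3.18. Within library numbers 4 to 8, which the sample descriptions give to KO replicates 4 to 6 and WT replicates 2 to 4, it was -3.98. Within numbers 1 to 3, which hold KO replicates 1 to 3 and WT replicate 1 alone, it was -2.83 and did not pass the threshold.

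Ly6c1, the other gene for Ly6C, was far lower in level, at 3.83, 5.75, 3.75, 0.127, 2.07 and 2.57 CPM in KO replicates 1 to 6, against 9.59, 16.5, 6.18 and 11.2 CPM in WT replicates 1 to 4. KO replicate 4 stood apart with 5 counts. The groups did not overlap, but the log2 fold change of -1.85 (SE 0.77) did not pass the threshold. Library numbers 4 to 8 alone gave -2.73, and numbers 1 to 3 gave -1.07.

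Ly6c2 made up a smaller part of the Ly6C reads in most KO libraries. Of the summed Ly6c1 and Ly6c2 counts it took 76.3%, 74.0%, 86.3%, 99.4%, 88.5% and 88.8% in KO replicates 1 to 6, against 93.0%, 93.2%, 96.4% and 98.0% in WT replicates 1 to 4. The Wilson 95% intervals, which cover counting error only, were 72.7% to 79.6% in KO replicate 1 and 92.3% to 93.6% in WT replicate 1. KO replicate 4, at 98.6% to 99.8%, was above every WT library, so the groups overlapped. The means were 85.5% in KO and 95.2% in WT. Reads common to both genes were not counted, so the share describes the reads that could be told apart.

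Ly6a, which encodes Sca-1, held 395, 1219, 929, 840, 1012 and 1148 CPM in KO replicates 1 to 6, against 2399, 1458, 902 and 1656 CPM in WT replicates 1 to 4. WT replicate 3 lay within the KO range and the other WT libraries lay above it. The log2 fold change was -0.80 (SE 0.34) and did not pass the threshold. Library numbers 4 to 8 alone gave -0.35, and numbers 1 to 3 gave -1.46. When libraries were scaled to 8 T cell receptor complex genes, the Ly6a value became -1.52 and passed, while the median of all genes moved by -0.80. Relative to that shift, Ly6a differed little between the scalings.

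Ly6e, an interferon-inducible gene that also marks immature thymocytes, was the most abundant member, at 5181, 7602, 7797, 4751, 6237 and 5454 CPM in KO replicates 1 to 6, against 6330, 6462, 4178 and 5702 CPM in WT replicates 1 to 4. The groups overlapped over most of their range. The log2 fold change was 0.12 (SE 0.22), and under the T cell receptor scaling it turned to -0.62, again less than the shift of all genes.

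Ly6d, a marker of the B cell lineage, held 30.8, 49.4, 85.3, 11.3, 5.79 and 28.0 CPM in KO replicates 1 to 6, against 735, 971, 629 and 853 CPM in WT replicates 1 to 4. The WT libraries lay close together, while the highest KO library was 14.7 times the lowest. The log2 fold change was -4.51 (SE 0.65), with -4.92 to -4.23 over the fits that each leave out 1 library. In library numbers 4 to 8 alone the value was -5.71, against -3.70 in numbers 1 to 3.

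Per kilobase of annotated exon, the order of the levels was the same in both groups. In KO, Ly6e stood at 1631 ± 339 CPM per kb (SD, n = 6), Ly6a at 767 ± 244, Ly6d at 47.2 ± 39.0, Ly6c2 at 6.70 ± 1.53 and Ly6c1 at 1.80 ± 1.14. The KO ranges of neighbours in this order did not overlap for Ly6e and Ly6a, for Ly6a and Ly6d, or for Ly6c2 and Ly6c1, while the lowest Ly6d value (7.78) lay below the highest Ly6c2 value (8.61). In WT, Ly6e stood at 1498 ± 277 CPM per kb (SD, n = 4), Ly6a at 1331 ± 514 and Ly6d at 1072 ± 198, with overlapping ranges. Ly6c2 at 98.9 ± 72.0 and Ly6c1 at 6.49 ± 2.57 CPM per kb stood below them without overlap. The exon length counted for Ly6c2 (2740 bases) is longer than its transcript compared above (822 bases), which lowers its level per kilobase. The same holds for Ly6e (3784 against 2281 bases), Ly6c1 (1677 against 844) and Ly6a (1205 against 819). For Ly6d both are 744 bases. Overlaps between genes therefore depend on the length used.

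The Ly6 genes were also compared within KO, between library numbers 4 to 8 (KO replicates 4 to 6) and numbers 1 to 3 (KO replicates 1 to 3), a contrast that had no part in choosing them. The labels do not say what these numbers stand for. None of the 5 genes passed edgeR's quasi-likelihood test, where 12.7% of 12919 genes tested were called (9.6% lower and 3.15% higher in numbers 4 to 8), and 1, Ly6d, had an unadjusted p under 0.05. Ly6d averaged 15.0 ± 11.6 CPM in numbers 4 to 8 and 55.2 ± 27.7 CPM in numbers 1 to 3 (SD, n = 3 each; log2 difference -1.87, SE 0.64, edgeR adjusted p = 0.11). With DESeq2 the Ly6d difference was -1.81 and passed (adjusted p = 0.017). The other log2 differences were 0.25 for Ly6a (SE 0.38), 0.15 for Ly6c2 (SE 0.38), -0.32 for Ly6e (SE 0.21) and -1.47 for Ly6c1 (SE 1.04), with edgeR adjusted p between 0.42 and 0.87. Without KO replicate 1, the Ly6a difference turned to -0.025.

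Markers of other cells that carry Ly6 proteins differed between the genotypes as well. Counts of calls here and in the lists below stand beside 2.7% lower and 0.429% higher over all genes tested. The median log2 fold change of all genes was -0.12, and DESeq2 called 999 of them lower and 613 higher. The 10 B cell markers summed to 80.1 to 318 CPM in KO, against 2616 to 10619 CPM in WT, and 7 of the 10 were called lower. Cd79a and Cd79b, the signalling chains of the B cell receptor, led them, at 72.2 ± 44.8 and 51.8 ± 25.3 CPM in KO (SD, n = 6) against 2013 ± 749 and 1619 ± 686 CPM in WT (SD, n = 4). Within KO, replicate 3 was the highest and replicate 5 the lowest in both Ly6d and the B cell sum. Within WT, replicate 2 was the highest in both, but the lowest was replicate 3 for Ly6d and replicate 1 for the sum. Ly6d per summed B cell CPM was 0.232, 0.170, 0.268, 0.0699, 0.0723 and 0.128 in KO replicates 1 to 6, against 0.281, 0.0914, 0.0890 and 0.133 in WT replicates 1 to 4. These ratios overlapped between the groups, although Ly6d itself did not. The part of B cell RNA in the Ly6d difference was not tested beyond these values.

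The 10 monocyte and macrophage markers, whose cells carry abundant Ly6C, summed to 4.60 to 183 CPM in KO, against 1066 to 6729 CPM in WT, and 2 of the 10 were called lower (8 without WT replicate 1, 3 without KO replicate 4, 1 without WT replicate 4, and 7 under the T cell receptor scaling). Lyz2, a lysozyme, and Csf1r, the receptor for macrophage colony-stimulating factor, led them at 55.1 ± 49.1 and 3.90 ± 4.38 CPM in KO (SD, n = 6) against 2544 ± 2179 and 199 ± 198 CPM in WT (SD, n = 4). WT replicate 4 was the highest and WT replicate 1 the lowest WT library in both this sum and Ly6c2. Within KO, replicate 1 was the lowest in both, but the highest was replicate 6 for the sum and replicate 3 for Ly6c2. Ly6c2 per summed monocyte and macrophage CPM was 2.69, 0.174, 0.379, 0.261, 0.487 and 0.111 in KO replicates 1 to 6, against 0.120, 0.0980, 0.0872 and 0.0833 in WT replicates 1 to 4. KO was mostly above WT on this ratio, with KO replicate 6 inside the WT range. Per summed plasmacytoid dendritic cell CPM, Ly6c2 ran from 3.72 to 12.5 in KO and from 3.57 to 8.95 in WT, with overlap. Per summed T cell CPM, Ly6c2 stood at 0.000632 to 0.00109 in KO and 0.00730 to 0.0476 in WT, and Ly6a at 0.0202 to 0.0567 in KO and 0.0996 to 0.141 in WT. Ly6e, whose CPM overlapped between the groups, stood at 0.227 to 0.359 per T cell CPM in KO and 0.362 to 0.484 in WT. None of these 3 ratios to T cell markers overlapped. The T cell sum was itself higher in every KO library (19535 to 25131 CPM in KO, 8741 to 17494 CPM in WT). This larger divisor lowers each of the 3 ratios in KO, also for a gene of equal CPM. All ratios were chosen after the values were seen, and the part of other cells in the Ly6c2, Ly6a and Ly6e values was not tested.

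**Figure D2:**
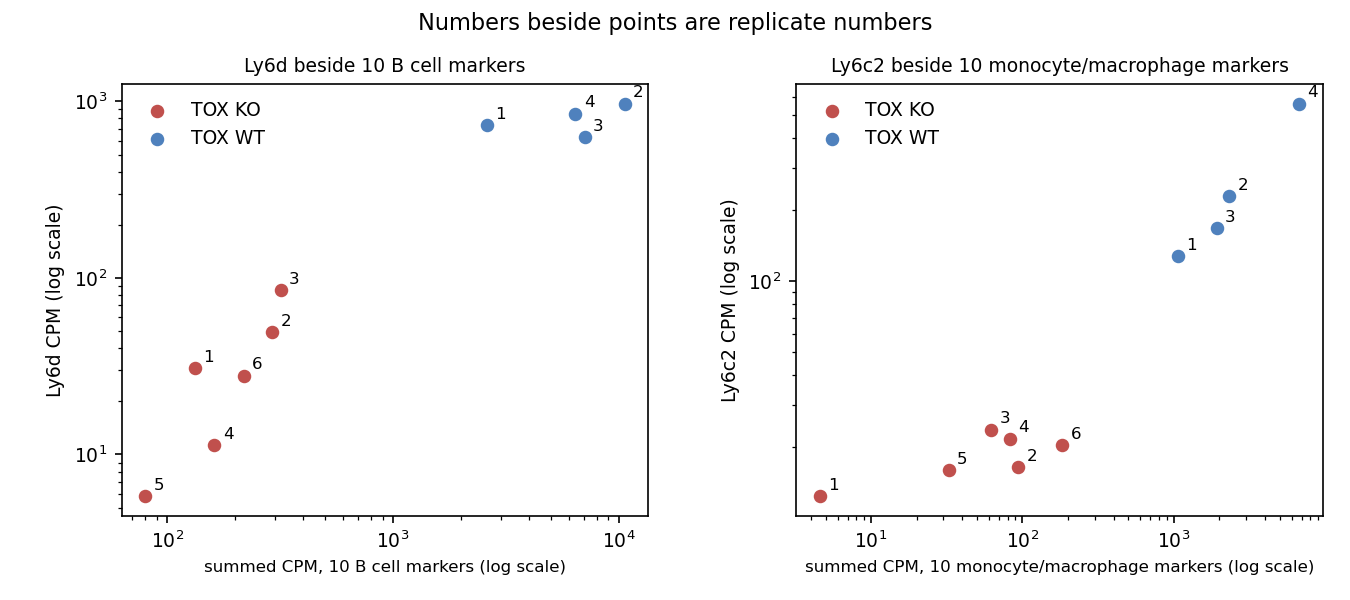
Left, Ly6d against the summed level of 10 B cell markers. Right, Ly6c2 against the summed level of 10 monocyte and macrophage markers. All axes are CPM on log scales, each point is a library with its replicate number, and the 6 TOX KO points (80.1 to 318 CPM of B cell markers) lie apart from the 4 TOX WT points (2616 to 10619 CPM) in both panels.

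The remaining marker lists were read in the same way. Plasma cell markers summed to 75.3 to 747 CPM in KO and 797 to 5685 CPM in WT (2 of 5 tested called lower, and 1 without KO replicates 1 to 5, WT replicate 2 or WT replicate 4, each left out in turn). Neutrophil markers summed to 0 to 67.6 CPM in KO and 14.4 to 826 CPM in WT (1 of 6 lower, and none when any library but WT replicate 1 was left out). Plasmacytoid dendritic cells, which also carry Ly6C, had sums of 1.53 to 3.55 CPM in KO and 34.7 to 62.6 CPM in WT (2 of 6 lower, 3 without WT replicate 1, 2 without KO replicate 1, and 1 when any other library was left out). The conventional dendritic cell markers summed to 0.794 to 5.63 CPM in KO and 10.0 to 55.9 CPM in WT (none of 5 called, and 1 lower without WT replicate 1). Endothelial markers, which matter because endothelium is known for Ly6c1 and Ly6a, summed to 165 to 370 CPM in KO, against 89.4 to 359 CPM in WT. Nearly all of that was Pecam1, which T cells also express. Of the other 7, Cdh5, Tek and Cldn5 had 0 counts over the KO libraries, against 56, 5 and 0 over the WT libraries, and Kdr had 1 in KO and 117 in WT. Egfl7 had 97 counts in KO and 393 in WT, Plvap 218 in KO and 10 in WT, and Emcn 27 in KO and 0 in WT. None was called. NK and CD8 T cell markers summed to 211 to 321 CPM in KO and 105 to 185 CPM in WT. That sum was mostly Klrb1c, an NK cell receptor gene, in KO (224 ± 38.8 CPM, SD, n = 6, against 32.0 ± 20.1 CPM in WT, SD, n = 4), which was called higher, though not without WT replicate 4. The other 5 markers had negative log2 fold changes, from -4.24 for Klre1 to -0.47 for Cd8b1, and edgeR called none of them (DESeq2 and limma-voom each called 1 lower). Fibroblastic stroma markers summed to at most 3.80 CPM and melanoma markers to at most 6.93 CPM in any library, and erythroid markers summed to 1.87 to 370 CPM in KO and 0.314 to 54.1 CPM in WT. Their part in the Ly6 results was not tested.

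The chromosome 15 cluster from Psca to Ly6g (74714839 to 75159126, 444288 bp) holds 32 annotated genes, of which 14 were tested and 8 had no count in any library. Besides Ly6d and Ly6c2, which were chosen with this contrast known, 2 more of the 14 were called lower and none higher. Over all genes tested, 2.7% were called lower and 0.429% higher. The 2 were Lynx1 and RP23-458B6.6, the gene between Ly6c2 and Ly6g. RP23-458B6.6 averaged 0.349 CPM in KO against 18.8 CPM in WT (log2 fold change -5.74, edgeR adjusted p = 0.021) and was named after its value was seen. The 4 genes formed neighbouring pairs, Lynx1 with Ly6d and Ly6c2 with RP23-458B6.6. Ly6e, between the pairs, had the smallest fold change of the 14. Nothing is read from the count or the positions, and a shared control of the cluster was not tested.

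**Figure D3:**
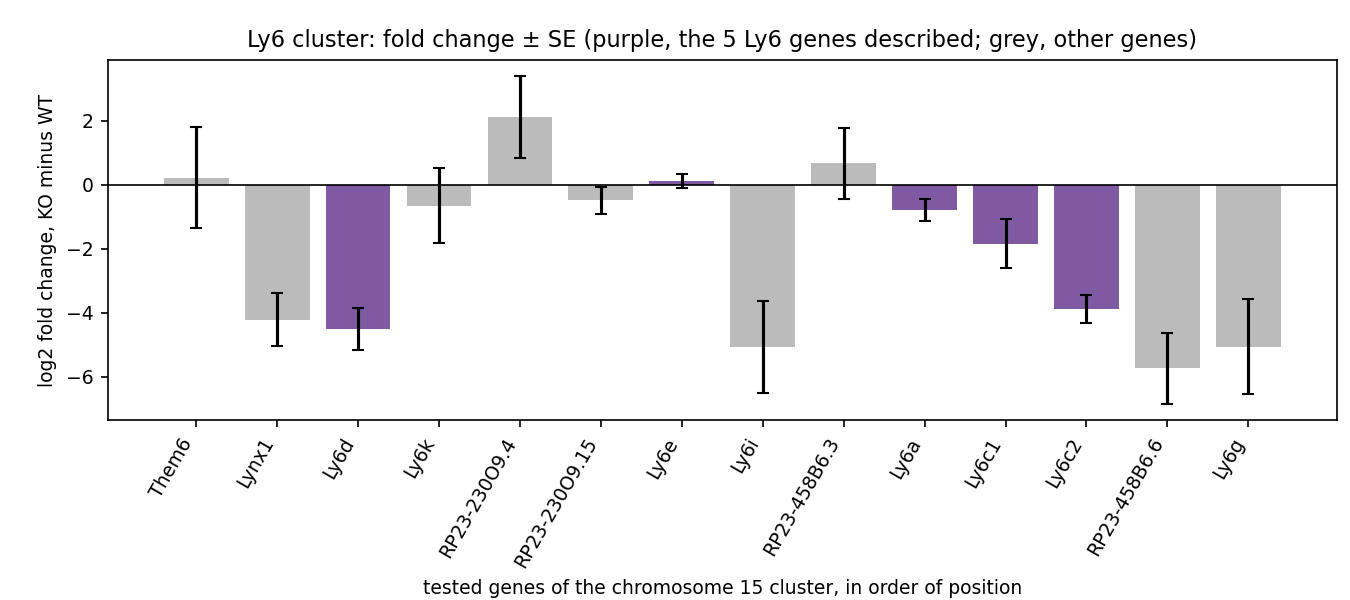
Log2 fold change, KO minus WT, with its SE for the 14 tested genes of the chromosome 15 cluster in order of position. Purple bars are the 5 Ly6 genes described and grey bars the other genes. Ly6d (-4.51) and Ly6c2 (-3.88) stand beside smaller values for Ly6c1 (-1.85), Ly6a (-0.80) and Ly6e (0.12).

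Beyond these 5, 38 further genes of the Ly6 and uPAR family were listed, of which 32 were in the table and 7 passed the filter on low counts. Only Lynx1, an inner brake on nicotinic acetylcholine receptors in the nervous system, was called lower, at 1.28 ± 0.98 CPM in KO (SD, n = 6) and 24.0 ± 14.7 CPM in WT (SD, n = 4; log2 fold change -4.23, SE 0.83, edgeR adjusted p = 0.022). Lynx1 did not pass without KO replicate 3 (adjusted p = 0.053), WT replicate 2 (0.069) or WT replicate 4 (0.068). Plaur, the urokinase receptor, had 7.90 ± 6.03 CPM in KO against 121 ± 35.5 CPM in WT without overlap and missed the threshold (-3.93 on the log2 scale, edgeR adjusted p = 0.063). It passed without KO replicate 5 (0.0086) or WT replicate 1 (0.042). Ly6i averaged 1.19 CPM in KO against 40.3 CPM in WT (log2 fold change -5.08, edgeR adjusted p = 0.096). Ly6g, the antibody target on neutrophils, averaged 0.083 CPM in KO against 2.86 CPM in WT (log2 fold change -5.06, edgeR adjusted p = 0.11). Both passed without WT replicate 1, with adjusted p of 0.046 for Ly6i and 0.026 for Ly6g. Ly6g fell below the filter without KO replicate 6, and the other 9 such fits gave it -5.47 to -4.56 on the log2 scale.

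The low family members gave no stable direction. Ly6k averaged 2.43 CPM in KO against 3.82 CPM in WT (log2 fold change -0.65), Ly6g5b 1.57 CPM in KO against 2.06 CPM in WT (-0.40), and Lypd6b 1.77 CPM in KO against 1.20 CPM in WT (0.55). None passed the test, and each changed sign under at least 1 alternative setting. Cd59a, a complement inhibitor, had 0 counts in KO and 220 in WT and was not tested. DESeq2 called 4 of the 7 tested genes lower and limma-voom 3. Without WT replicate 1, edgeR called 4, without KO replicate 5 it called 2, and without KO replicate 3, WT replicate 2 or WT replicate 4 it called none. The median log2 fold change of the 7 was -3.93, beside -0.12 over all genes tested.

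Most Ly6 proteins are held at the surface by the GPI anchor, and genes that build and attach it were mostly not called. Of 28 tested, 2 rose and none fell, beside 0.429% higher and 2.7% lower over all genes tested. The median log2 fold change was 0.27, beside -0.12 over all genes. Pigs, a subunit of the GPI transamidase that joins the anchor to the protein, had 462 ± 80.3 CPM in KO (SD, n = 6) and 198 ± 76.7 CPM in WT (SD, n = 4; log2 fold change 1.22, edgeR adjusted p = 0.043). Pgap3, which remodels the lipid of the finished anchor, had 55.8 ± 13.4 CPM in KO against 15.0 ± 9.35 CPM in WT (log2 fold change 1.89, edgeR adjusted p = 0.041). Both also passed without WT replicate 1 or WT replicate 3, neither did in the other 8 fits that leave out a library (adjusted p at most 0.18 for Pigs and 0.15 for Pgap3), and neither did under the T cell receptor scaling. The list then had 5 calls without WT replicate 3, 4 without WT replicate 1 and none in those 8. Of the 28, 5 were higher and 1 lower at an unadjusted p under 0.05, and DESeq2 called 4 higher and 1 lower.

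Other GPI-anchored proteins of lymphocytes had a median of -1.51 over 12 genes tested. Among them 2 fell and none rose. With no adjustment, 7 were lower and 1 higher at p under 0.05, and DESeq2 called 4 lower and 1 higher. Cd24a, the heat-stable antigen of B cells and immature lymphocytes, had 4.19 ± 2.10 CPM in KO (SD, n = 6) and 121 ± 60.1 CPM in WT (SD, n = 4; log2 fold change -4.85, edgeR adjusted p = 0.0023), and it passed in all 10 fits without 1 library. Bst1, an ectoenzyme of myeloid cells and B cell progenitors, had 4 counts over all KO libraries and 638 over all WT libraries (edgeR adjusted p = 0.025). Bst1 failed to pass in 7 of these fits, those without KO replicates 1 to 5, WT replicate 2 or WT replicate 4, so the list kept 1 call in those fits. Without WT replicate 1 it had 4, and 1 gene passed on the higher side without KO replicate 4 or WT replicate 1.

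**Figure D4:**
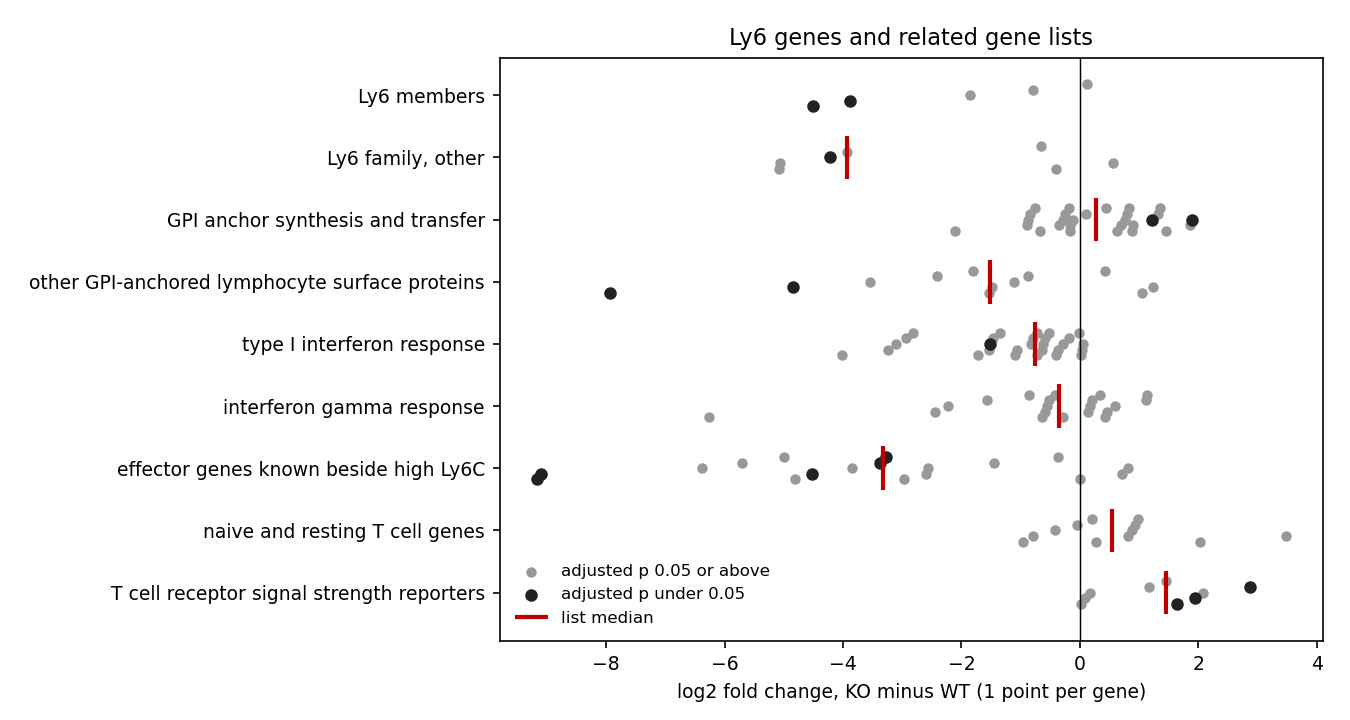
Log2 fold change, KO minus WT, of each tested gene, by list. Black points passed the test (edgeR adjusted p under 0.05), grey points did not, and red lines are list medians, which are not drawn for the 5 Ly6 genes. The medians run from -3.93 in the other Ly6 family genes to 1.46 in the T cell receptor signal reporters.

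Ly6a and Ly6e belong to the interferon-induced genes, so 2 lists of interferon targets were set beside them. Of 28 type I interferon genes tested, 1 fell and none rose, and the median log2 fold change was -0.76, beside -0.12 over all genes tested. At an unadjusted p under 0.05, 7 were lower and 0 higher, and DESeq2 called 5 lower and 0 higher. The gene that fell in edgeR's test was Oasl1, an oligoadenylate synthetase-like protein, with 19.2 ± 5.94 CPM in KO (SD, n = 6) and 55.0 ± 19.8 CPM in WT (SD, n = 4; log2 fold change -1.52, edgeR adjusted p = 0.047). Oasl1 also passed without WT replicate 1, where the list had 5 calls, or without WT replicate 3, and missed the threshold in the other 8 such fits (adjusted p at most 0.23). The log2 fold changes of Ly6a and Ly6e, as given, were -0.80 and 0.12.

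Of 20 interferon gamma genes tested, none passed edgeR's test in either direction, and the median was -0.35. At an unadjusted p under 0.05, 1 was higher and 2 were lower, and DESeq2 and limma-voom each called 1 in each direction. Psmb8, an immunoproteasome subunit, had 1205 ± 250 CPM in KO (SD, n = 6) and 898 ± 780 CPM in WT (SD, n = 4; log2 fold change 0.42). Tap1, which carries peptides to MHC class I, had 908 ± 163 CPM in KO against 415 ± 353 CPM in WT (log2 fold change 1.13). Without WT replicate 1, 2 genes of this list passed on the higher side, Psmb8 among them (edgeR adjusted p = 0.048). Without WT replicate 3, 1 gene passed on the higher side, and without KO replicate 1, 1 gene passed on the lower side.

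Effector genes known to go with high Ly6C on T cells were set beside Ly6c2. Of 18 tested, 5 fell and none rose, beside 2.7% lower and 0.429% higher over all genes tested. The median log2 fold change was -3.32, beside -0.12 over all genes, although several of the 18 are also expressed by monocytes or natural killer cells. At an unadjusted p under 0.05, 13 were lower and 2 higher. DESeq2 called 10 lower and 0 higher (999 and 613 over all genes), and limma-voom called 8 lower (680 over all genes). In the fits that each leave out a library, 3 to 9 passed, 9 of them without WT replicate 1 and 3 without WT replicate 4. The most abundant of the 5 were Nkg7 and Cxcr3, at -3.37 (adjusted p = 0.017) and -3.27 (0.030) on the log2 scale by edgeR, beside -3.88 for Ly6c2. Nkg7 missed the threshold without WT replicate 4 (0.053), and Cxcr3 missed it without KO replicates 2, 3, 5 or 6 or WT replicates 2 or 4 (at most 0.094).

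Genes of naive and resting T cells, 12 in all, gave no edgeR call, with a median of 0.54. At an unadjusted p under 0.05, 5 were higher and 0 lower, DESeq2 called 3 higher, limma-voom called 1 higher, and without WT replicate 1 edgeR called 1. Tcf7, a transcription factor of naive and memory cells, had 979 ± 410 CPM in KO (SD, n = 6) and 511 ± 151 CPM in WT (SD, n = 4; log2 fold change 0.94). Ccr7, the lymph node homing receptor, had 884 ± 251 CPM in KO and 480 ± 220 CPM in WT (0.88). Of 9 genes that report T cell receptor signal strength, 3 rose and none fell, beside 0.429% higher and 2.7% lower over all genes tested. Their median was 1.46, beside -0.12 over all genes. At an unadjusted p under 0.05, 6 were higher and 0 lower, and DESeq2 called 4 higher and 0 lower. The 3 were Cd5 (1.65 on the log2 scale, edgeR adjusted p = 0.0090), Nr4a1 (1.94, 0.031) and Egr3 (2.87, 0.026). Cd5 passed in all 10 fits without 1 library, and 1 to 5 genes of this list passed, 5 of them without WT replicate 1 and 1 without KO replicate 6, WT replicate 2 or WT replicate 4. Under the T cell receptor scaling none of the 9 passed. Over all 14214 genes tested, that scaling called 1862 lower and 17 higher, against 384 lower and 61 higher without it. That scaling called genes lower in the other lists: 4 of the 7 further family genes, 2 of the 28 anchor genes, 7 of the 12 other GPI-anchored proteins, 10 of the 28 type I and 4 of the 20 interferon gamma genes, 11 of the 18 effector genes and 1 of the 12 naive genes.

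The genes whose library pattern was most like that of Ly6c2 and Ly6a were found from log2 CPM centred on each genotype mean, over the 10 libraries, among 8106 genes. Ift20, Prpf38a and Ncbp2 were nearest to Ly6c2, with root mean square differences of 0.22, 0.28 and 0.28 on the log2 scale, where Ly6c2 itself had a spread of 0.56. Prdx1, Gtf2a2 and Bcl2a1b were nearest to Ly6a, at 0.12, 0.13 and 0.14, where Ly6a had a spread of 0.53. The points share library depth and scaling.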

How the data were processed

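Per the file headers, the authors obtained the deposited counts (read pairs by gene) from featureCounts 1.6.2 with GENCODE M17 on GRCm38.p6, with no strand option and leaving out reads that match several places. The submitters' processing notes also name FastQC and STAR, with no versions. Antisense partners therefore cannot be separated. Counts were scaled with TMM factors, filtered with filterByExpr and compared by the quasi-likelihood test (R 4.3.3, edgeR 4.0.16, limma 3.58.1), fitting genotype alone, adjusted by Benjamini-Hochberg over 14214 genes. Fold changes are KO minus WT, and log2 CPM used a prior count of 2. Alternatives were other scalings and filters, DESeq2 1.42.0, limma-voom, replicate blocks, library sets, a threshold of 0.01 and leaving out each library. Replicates of 1 group differed beyond sampling noise. WT replicate 1 stood apart, with a chi-square per gene of 1363 to 1736 against WT replicates 2 to 4, which gave 226 to 542 among themselves. It had 14365 genes with counts, against 19101 to 19775 in those. Between KO replicates 1 to 3 and 4 to 6 the chi-square per gene was 596 to 944, against 133 to 442 within these sets. The procedure was tested on simulated data. Sequences come from GENCODE M21 transcripts and RefSeq promoters (GRCm38.p6), aligned with Biopython 1.88.

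The Ly6 genes and all lists were chosen with earlier results of these data known. Named genes were Tox, the 5 Ly6 genes, family genes that averaged 1 CPM or more, up to 2 genes per list by mean CPM (called genes first), the 2 most abundant markers of a cell type, and the 3 genes most like Ly6c2 or Ly6a among those averaging 8 CPM or more. The T cell receptor complex scaling used Cd3d, Cd3e, Cd3g, Cd247, Trac, Trbc1, Trbc2 and Cd4. Not every gene counted in the lists is reported here by name.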

Additional observations from a re-analysis of the deposited data

How the results depend on the processing

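Under the T cell receptor scaling, Ly6a was -1.52 and passed, Ly6e was -0.62, Lypd6b -0.54 and Psmb8 -0.17. That scaling moved the share of calls that were higher to 0.905%, against 13.7% at first, DESeq2 moved it to 38.0%, leaving out WT replicates 1 and 3 to 26.9% and 42.8%, and leaving out WT replicates 2 and 4 to 5.93% and 6.54%. The labels do not say that the title numbers or the library numbers pair the samples. Correlations between KO and WT libraries of the same title number were 0.29, -0.25, -0.22 and 0.30. By library number they were 0.32 for number 2 and 0.13 for number 6. Libraries of unlike numbers were not compared, so these values cannot show whether samples were paired. With a replicate block by title number, Ly6c2 was -3.67, Ly6d -4.49, Tox -3.26 and Ly6k 0.37. With a replicate block by library number they were -3.18, -5.32, -2.73 and 2.78, with Lypd6b -0.89, Ly6g5b 0.15 and Psmb8 -0.087. No gene passed under either block (0 higher, 0 lower, 0 in the lists), and Ly6c2, Ly6d and Tox kept their direction. Tox, at -2.93, missed the threshold of 0.01. Library numbers 1 to 3 alone, with 1 WT library that was assumed to vary like KO, gave Ly6c2 -2.83, Ly6k 10.4 (that WT library holds 0 counts), Ly6g5b 3.04 and Psmb8 -0.49, and 80% of its calls were higher. Ly6k was 0.88 with limma-voom. Ly6g5b was 0.52 with the library set term and ran from -1.18 to 0.31 without 1 library, above 0 without WT replicate 2 alone.

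Genes higher in KO numbered 61, and 17 under the T cell receptor scaling, 39 with no filter, 613 with DESeq2, 204 with limma-voom, 116 with the set term, 7 at 0.01, 121 in numbers 4 to 8, 316 in numbers 1 to 3, and 10 to 443 without 1 library. Genes lower numbered 384, and in the same order of settings 1862 (T cell receptor scaling), 999 (DESeq2), 680 (limma-voom), 121 (0.01), 1033 (numbers 4 to 8), 79 (numbers 1 to 3) and 143 to 1201 without 1 library. Over the 8 lists, 5 genes were higher, and 0 under the T cell receptor scaling, 3 with no filter, 13 with DESeq2, 9 with limma-voom, 1 at 0.01, 3 in numbers 4 to 8, and 1 to 13 without 1 library. Over the lists 9 were lower, and 39, 25, 17, 4 and 18 under the T cell receptor scaling, DESeq2, limma-voom, 0.01 and numbers 4 to 8, 1 in numbers 1 to 3, and 4 to 24 without 1 library. Within KO, Ly6a ran from -0.025 to 0.67 without 1 library and Ly6d was -1.81 with DESeq2. Divided by exon length, the mean share of Ly6c2 was 78.9% in KO and 92.4% in WT, against 85.5% and 95.2% undivided. The causes were not tested. Over the settings run, Ly6c1 (-2.73 to -1.07) stayed below 0 and did not pass, and Ly6a, Ly6c2, Ly6d and Tox stayed below 0.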
